A study of Mus musculus with 3 samples.

Results

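The Siglec family across the white cells of mouse blood is described here through 7 genes: Siglec1, Siglece, Siglecf, Siglecg, Siglech, Cd22 and Cd33. They were taken by gene symbol from the 19059 genes of the deposited matrices, and each symbol matched exactly 1 row. The data are droplet single-cell counts from 3 libraries of peripheral blood leukocytes of untreated mice, all labelled male, 1 library each at 8, 9 and 10 weeks of age (replicates 1, 2 and 3). The labels give no mutant allele or transgene and no strain. Red cells had been lysed, and cells had been sorted after DAPI and Draq5 staining and then fixed. The study's title concerns splenic macrophages that carry CD169, the product of Siglec1, and Tim4 after myocardial infarction, and no infarcted animal is among these samples. With a single untreated group, the comparisons possible are between cell types of the same blood. They ask which circulating cells carry Siglec1 and how its relatives are shared out among the same cells.

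Siglecs are sialic-acid-binding lectins of the immunoglobulin superfamily, which read the sialylated sugars that coat the body's own cells. Most carry inhibitory tyrosine motifs in the cytoplasmic tail that recruit the phosphatases encoded by Ptpn6 and Ptpn11 and so dampen activating receptors. Siglec1 (CD169, sialoadhesin) lacks such a motif and works mainly in the adhesion of macrophages to sialylated cells and particles. Cd22 and Siglecg restrain the B cell receptor, Siglece and Cd33 sit on myeloid cells, Siglecf is best known from mouse eosinophils, and Siglech marks plasmacytoid dendritic cells, where it signals through the adaptor DAP12 encoded by Tyrobp.

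In the mouse annotation GENCODE M21 (GRCm38), 6 of the 7 genes lie on chromosome 7. Siglecf (ENSMUSG00000039013, 43351341 to 43359531, plus strand), Siglecg (ENSMUSG00000030468, 43408204 to 43418358, plus strand), Cd33 (ENSMUSG00000004609, 43524216 to 43544428, minus strand) and Siglece (ENSMUSG00000030474, 43651070 to 43660161, minus strand) fall within 309 kb of each other. Cd22 (ENSMUSG00000030577, 30865402 to 30880342, minus strand) and Siglech (ENSMUSG00000051504, 55768178 to 55778925, plus strand) lie apart on the same chromosome. Siglec1 (ENSMUSG00000027322, 131069220 to 131086765, minus strand) is on chromosome 2.

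The libraries held 45718031, 19591648 and 23443660 unique molecular identifiers (UMIs, each a counted probe molecule), and 10337, 4935 and 6495 cells were kept, with median totals of 3474, 3273 and 3130 UMIs per cell. Pairs of libraries shared 48 to 101 cell barcodes. Cells were assigned to 14 classes from raw UMI counts of marker genes, none of which is a Siglec, and 523 cells were left unresolved. The classes include 585 Ly6c-high-like (classical) monocytes, 652 Ly6c-low-like (patrolling) monocytes, 111 intermediate monocyte-like cells, 2646 neutrophil-like cells, 9800 B-like cells, 2450 CD4 T-like cells, 2967 CD8 T-like cells and 889 NK-like cells. Only 51 conventional dendritic-like, 28 basophil-like and 4 plasmacytoid dendritic-like cells were found, and no cell met the eosinophil gate. Classes under 10 cells in any library were not tested. Levels are a gene's summed UMIs scaled by the UMI total of the class (CPM), given per library in the order of replicates 1, 2 and 3, and apply to a gene across classes, since probes of different genes are not on a common scale. In summed counts a class with fewer positive cells and a class with less RNA per cell cannot be told apart, so the share of cells with at least 1 UMI is given beside the level. CD4 T-like cells serve as the background class for such shares, with a median of 3259 to 3605 UMIs per cell. Medians per library were 7865 to 9327.5 UMIs in Ly6c-high-like, 4325 to 4861 in Ly6c-low-like, 2658 to 2825 in neutrophil-like and 3080 to 3225 in B-like cells.

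**Figure D1:**
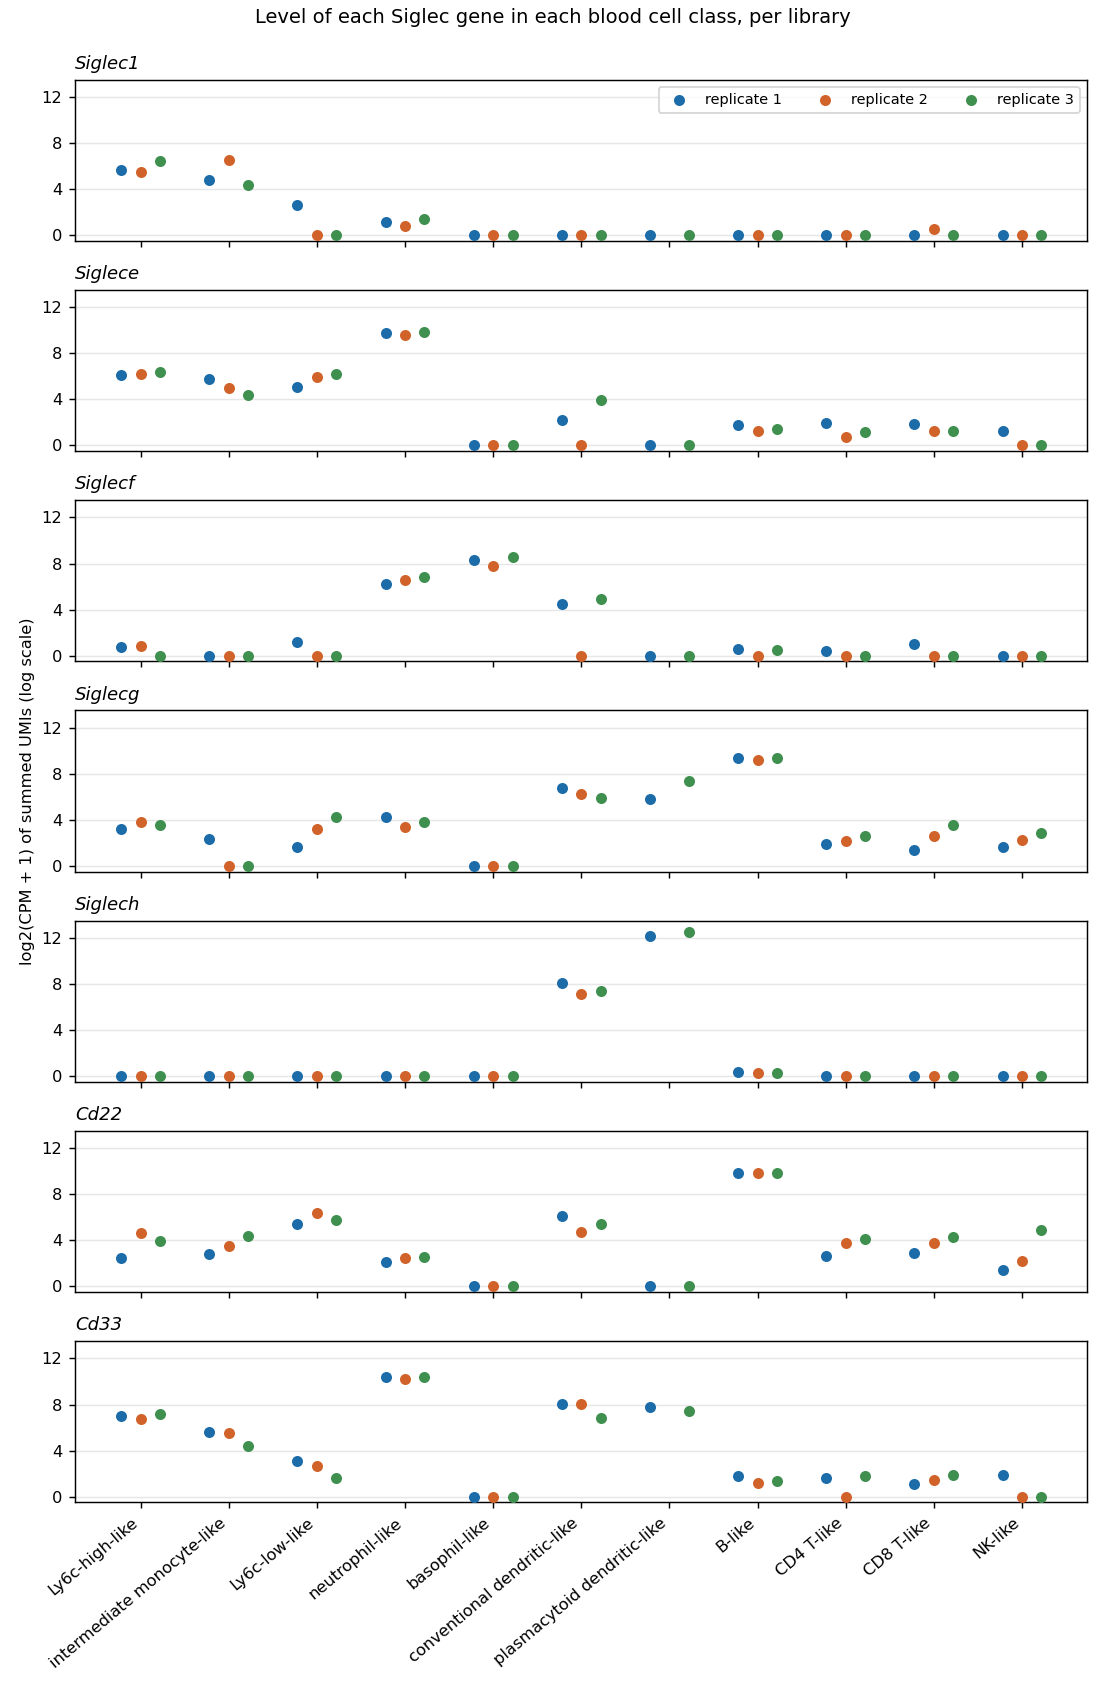
Level of each of the 7 Siglec genes, as log2(CPM + 1) of summed UMIs, in 11 blood cell classes, with 1 point per library. Siglece and Cd33 stand highest in neutrophil-like cells, Siglecf in basophil-like cells, Siglecg and Cd22 in B-like cells, Siglech in plasmacytoid dendritic-like cells and Siglec1 in Ly6c-high-like and intermediate monocytes.

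Siglec1 was the member with the fewest UMIs, 344 in 176 cells, and 277 of those UMIs (80.5%) lay in Ly6c-high-like monocytes. Its level there was 49.4, 45.1 and 87.6 CPM, with a UMI in 21.3%, 22.6% and 26.4% of cells and at most 14 UMIs in a cell. Replicate 3 was the highest by level and by share. Intermediate monocyte-like cells held 42 more UMIs in 26 of 111 cells, at 27.6, 91.2 and 19.5 CPM. Their range overlapped that of Ly6c-high-like cells, and replicate 2 stood well above the other two.

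Outside those monocytes Siglec1 was close to undetected. Ly6c-low-like monocytes had 5.07, 0 and 0 CPM, from 12 UMIs in 8 cells, all in replicate 1. Neutrophil-like cells had 1.23, 0.759 and 1.59 CPM, 9 UMIs in 7 of 2646 cells. CD8 T-like cells had 1 UMI. No UMI was found in 9800 B-like cells, which allows a share of up to 0.0306%, in 2450 CD4 T-like cells (up to 0.122%), in 889 NK-like cells (up to 0.337%) or in 51 conventional dendritic-like cells (up to 5.88%). These limits cover counting error only, and they bound the share of cells with a UMI, not the share of cells that carry the transcript. With cells thinned to 2000 UMIs, which leaves out 17 Ly6c-high-like and 37 Ly6c-low-like cells with fewer, Siglec1 was detected in 8.00%, 6.52% and 13.3% of Ly6c-high-like cells, against 21.3%, 22.6% and 26.4% of all cells of the class before thinning, and in 0.299% ± 0.518 of Ly6c-low-like cells (SD, n = 3).

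Between the 2 main monocyte classes, 35.5% of the 10400 genes tested were called in either direction, and among the members Siglec1, Siglece and Cd33 were higher and Cd22 was lower in Ly6c-high-like cells. The Siglec1 log2 fold was 3.85 (SE 0.54, edgeR quasi-likelihood adjusted p = 1.07e-05), and the ratio of pooled UMIs was 14.7 (95% counting interval 8.31 to 28.9). DESeq2 left this difference outside its threshold (adjusted p = 0.123), and without replicate 1 the Ly6c-low-like class has no Siglec1 UMI at all, so that the fitted fold of 10.12 rests on the prior count. Cd33, a myeloid sialic acid receptor, stood at 129, 106 and 146 CPM in Ly6c-high-like and at 7.61, 5.36 and 2.00 CPM in Ly6c-low-like cells, a log2 change of 4.33 (SE 0.24, adjusted p = 1.02e-23). The Cd33 groups did not overlap in any library, and the log2 fold was 5.15 without replicate 1 and 3.25 with doublets kept. The called count itself was 3689 genes, and 2110 without replicate 1.

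Siglece, an inhibitory receptor of mouse phagocytes, was at 70.5, 74.6 and 82.9 CPM in Ly6c-high-like and at 32.1, 61.6 and 73.9 CPM in Ly6c-low-like cells. The ranges overlapped, and the libraries with the higher Ly6c-low-like values lay near the Ly6c-high-like ones. The log2 change of 0.75 (SE 0.21, edgeR adjusted p = 0.00448) fell to 0.19 without replicate 1 (adjusted p = 0.627) and was 0.45 with DESeq2 (adjusted p = 0.510). Siglecg had 50 and 17 UMIs in these classes and did not pass (log2 fold 0.88, SE 0.77, adjusted p = 0.427). Siglecf had 3 UMIs in each class, and Siglech had none in 585 Ly6c-high-like (up to 0.513%) and 652 Ly6c-low-like cells (up to 0.46%).

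The neutrophil was the main carrier of 3 relatives of Siglec1. Cd33 reached 1354, 1179 and 1307 CPM in neutrophil-like cells with a UMI in 94.0%, 91.7% and 90.7% of them, and these cells held 89.1% of its 11025 UMIs. Siglece reached 853, 787 and 899 CPM in 85.2%, 84.7% and 84.9% of cells, which held 88.0% of its 7206 UMIs. In CD4 T-like cells a UMI was found in 0.504% ± 0.439 of cells for Cd33 and 0.561% ± 0.413 for Siglece (SD, n = 3). Neutrophil-like cells have the lowest median depth of the 5 classes given above, and after thinning to 2000 UMIs, without 249 shallower neutrophil-like cells, the shares were 87.4% for Cd33 and 76.3% for Siglece, against 17.2% and 11.7% in Ly6c-high-like cells. Both genes were detected in the same cell in 2102 of 2646 neutrophil-like cells (79.4%). Each is frequent by itself. A Cd33 UMI was found in 94.2%, 92.5% and 91.25% of cells with a Siglece UMI, and in 92.5%, 87.5% and 87.3% of those without.

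Siglecf was found at 72.9, 92.6 and 111 CPM in neutrophil-like cells, with a UMI in 15.0%, 17.4% and 20.4% of them, against 0.0429% ± 0.0743 of CD4 T-like cells. These cells held 619 of its 766 UMIs (80.8%). Replicate 3 was the highest and replicate 1 the lowest. Basophil-like cells had a higher level, 319, 218 and 381 CPM, but this rests on 30 UMIs in 13 of 28 cells, 2 of those 28 cells in replicate 2. Since basophils were too few for a test, the excess over neutrophil-like cells is a description. The basophil-like class showed 8 of 8 basophil markers, the list that chose its cells. Of the 7 eosinophil markers it held Ccr3 and Alox15, with 69 UMIs and a list sum of 698 to 982 CPM, and Epx, Prg2, Prg3, Il5ra and Ear6 were at 0. The part of eosinophil RNA in its Siglecf signal was not tested. Conventional dendritic-like cells had 8 Siglecf UMIs in 5 cells.

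No cell met the gate for eosinophils, the best known Siglecf-bearing cells of the mouse. The granule protein genes Epx and Prg3 had 2 UMIs each in all cells together, Ear6 had 1, and Prg2 had 23. The other markers of the list were more frequent, with 1575 UMIs of the interleukin-5 receptor gene Il5ra in 1250 cells, 211 of the lipoxygenase gene Alox15 in 82 cells and 194 of the chemokine receptor gene Ccr3 in 145 cells. B-like cells held 1578 UMIs of the whole list, and Il5ra is also among the markers that chose B-1-like cells. In neutrophil-like cells the whole eosinophil list summed to 9.53 to 15.2 CPM, with 6 of 7 markers detected and Epx at 0. In Ly6c-high-like cells, with 3 Siglecf UMIs, the same list had 0 to 2.37 CPM, with Epx, Prg2, Prg3, Ccr3 and Ear6 at 0. The part of eosinophil RNA in the Siglecf signal of neutrophil-like cells was not tested.

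Cells with and without a Siglecf UMI were also compared within the neutrophil-like class, a comparison added after seeing the data. The 433 positive cells (255, 82 and 96) were set beside up to 3 negative cells each, matched on UMI total in the same library. Only 5 of 5644 genes (0.0886%) passed, all lower in the positive cells: Retnlg, a resistin-like hormone of neutrophils, Ngp, a granule protein of immature neutrophils, S100a8 and S100a9, the calprotectin subunits, and Cstdc4, a stefin-type protease inhibitor. Ngp had 20.4, 24.9 and 11.9 CPM in positive and 94.9, 155 and 21.4 CPM in matched negative cells, a log2 change of -2.24 (SE 0.26, edgeR adjusted p = 2.35e-05). At unadjusted p under 0.05 there were 275 genes. The number called was 2 without replicate 1, 9 without replicate 3, 0 without the library as a block and 2 with DESeq2. Siglece (log2 fold 0.05), Siglecg (0.28) and Cd33 (0.01) did not pass, and 408 of the 433 positive cells also had a Cd33 UMI. By library that was 96.1%, 93.9% and 89.6% of positive cells, against 94.4%, 94.3% and 89.2% of the matched negative cells.

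The genes of these 3 receptors start within the same 309 kb, and the 250 bases before each RefSeq start are printed because the levels of all 3 in neutrophil-like cells make their shared letters of interest. The sequences are from RefSeq on GRCm38.p6, read on the strand of the gene, 5′ to 3′, and capitals mark a run of 16 letters that 2 of them share.
Siglecf, chr7:43351091-43351340, plus strand: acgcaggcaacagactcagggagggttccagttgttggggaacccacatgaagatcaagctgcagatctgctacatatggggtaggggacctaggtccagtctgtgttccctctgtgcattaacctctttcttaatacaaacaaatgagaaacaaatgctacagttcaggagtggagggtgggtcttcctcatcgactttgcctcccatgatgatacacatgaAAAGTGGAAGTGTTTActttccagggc
Cd33, chr7:43533172-43533421, minus strand: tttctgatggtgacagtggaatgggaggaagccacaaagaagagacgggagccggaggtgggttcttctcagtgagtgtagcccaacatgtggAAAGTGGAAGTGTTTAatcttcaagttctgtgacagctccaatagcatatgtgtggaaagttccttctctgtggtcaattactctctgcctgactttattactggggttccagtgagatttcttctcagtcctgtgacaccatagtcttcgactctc
Siglece, chr7:43660162-43660411, minus strand: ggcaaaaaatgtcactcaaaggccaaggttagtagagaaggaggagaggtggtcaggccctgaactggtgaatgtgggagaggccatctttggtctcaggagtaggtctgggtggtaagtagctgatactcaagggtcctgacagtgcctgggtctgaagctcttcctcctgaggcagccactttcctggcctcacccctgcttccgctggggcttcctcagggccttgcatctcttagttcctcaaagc
The shared run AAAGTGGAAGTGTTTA lies 27 to 12 bases before the Siglecf start and 157 to 142 bases before the Cd33 start, and it is not in the Siglece window. The Cd33 window lies inside the longer GENCODE gene model of Cd33. Searched on both strands of 32851 promoter windows of 250 bases (27025 genes), the run was found in 2 windows (0.00609%), those of Siglecf and Cd33. The run was defined from these windows, so its presence there was given in advance. Any other pair among the 6 members with an entry shared at most 10 letters in a row. The inner 7 letters GGAAGTG, which overlap the run, occur in 8.55% of all windows and in those of Siglecf, Siglech and Cd33. A shared run is a description of letters and says nothing of a factor that binds there.

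Against neutrophil-like cells, 73.3% of genes were called for Ly6c-high-like and 70.4% for Ly6c-low-like monocytes, so a called member is the usual case in these comparisons. In Ly6c-high-like cells Siglec1 was higher, with a log2 change of 4.50 (SE 0.55, edgeR adjusted p = 5.28e-07) and a pooled ratio of 45.4 (counting interval 23.6 to 100). Siglece (log2 fold -4.45, SE 0.13, adjusted p = 2.55e-25) and Cd33 (log2 fold -4.31, SE 0.10, adjusted p = 1.3e-43) were lower. Siglecf had 3 UMIs in Ly6c-high-like and 619 in neutrophil-like cells, a pooled ratio of 0.00714 (counting interval 0.00147 to 0.0210). These 4 differences had no overlap of libraries.

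In Ly6c-low-like cells Siglec1 did not differ detectably from neutrophil-like cells (log2 fold 0.64, SE 0.98, adjusted p = 0.582), and Siglece (log2 fold -5.21, SE 0.16, edgeR adjusted p = 9.25e-25) and Cd33 (log2 fold -8.64, SE 0.18, adjusted p = 8.05e-47) were lower. The scale matters here. The median log2 fold of all genes in the Ly6c-high-like comparison was 0.05 after TMM scaling, 0.56 after scaling by DESeq2's size factors and 1.02 on plain totals, and 51.4%, 67.7% and 79.7% of the called genes were higher. In the Ly6c-low-like comparison the medians were 0.03, 0.55 and 0.97, and the shares 50.8%, 68.4% and 79.9%. The 4 differences above kept their direction and call under every scaling tried, and Siglecg did not keep its call. Its log2 fold in Ly6c-high-like cells was -1.60 (SE 0.48, adjusted p = 0.00599), but -0.63 on plain totals (adjusted p = 0.244) and -0.71 without replicate 1 (adjusted p = 0.114). In Ly6c-low-like cells it was -2.49 (SE 0.63, adjusted p = 0.0019), and -0.56 without replicate 1 (adjusted p = 0.339).

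**Figure D2:**
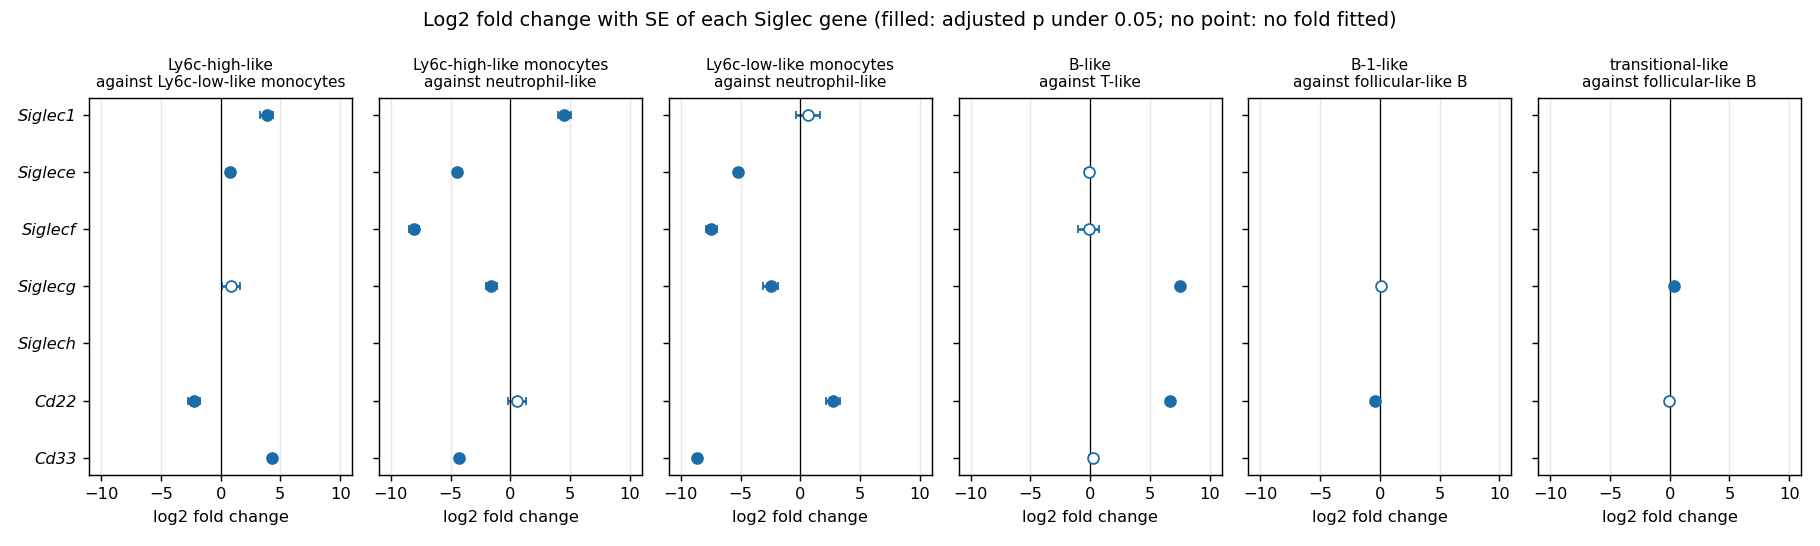
Log2 fold change with its standard error for each Siglec gene in 6 comparisons of cell classes, with the class named first in each title on top of the fold. Filled points passed an adjusted p of 0.05, and a gene without a point had no fitted fold. For Ly6c-high-like cells, Cd33 and Siglece both lie above 0 against Ly6c-low-like cells (4.33 and 0.75) and both below 0 against neutrophil-like cells (-4.31 and -4.45).

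Siglecg and Cd22, the restraining receptors of the B cell antigen receptor, were B cell genes in this blood. Cd22 was at 945, 917 and 919 CPM in B-like cells, with a UMI in 92.3%, 90.1% and 90.5% of cells. Siglecg was at 680, 576 and 645 CPM with a UMI in 85.1%, 80.1% and 81.7%. B-like cells held 97.6% of the UMIs of each gene. In CD4 T-like cells, the background class, Cd22 was at 5.17, 12.7 and 16.0 CPM with a UMI in 1.67%, 4.51% and 5.23% of cells, and Siglecg at 2.76, 3.53 and 4.92 CPM. Both genes were detected together in 7424 of 9800 B-like cells (75.8%) and neither in 255. A Cd22 UMI was found in 92.8%, 92.7% and 91.3% of cells with a Siglecg UMI, and in 89.3%, 80.0% and 86.9% of those without.

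Against T-like cells, the mean of the CD4 and CD8 classes, 63.2% of genes were called. Cd22 was higher in B-like cells by a log2 change of 6.66 (SE 0.21, edgeR adjusted p = 1.33e-16) and Siglecg by 7.54 (SE 0.22, adjusted p = 3.45e-16). The Siglecg fold was 6.85 without replicate 1. Of all called genes 49.9% were higher in B-like cells with TMM and 39.2% on plain totals. Siglece, Siglecf and Cd33 had 61, 11 and 58 UMIs in all 9800 B-like cells and did not pass.

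Inside the B cells the pair differed by subset. Transitional-like cells, recent emigrants from the bone marrow, had 761, 692 and 827 CPM of Siglecg, against 664, 561 and 616 CPM in follicular-like cells. Each library was higher in transitional-like cells, and the log2 fold was 0.33 (SE 0.05, edgeR adjusted p = 1.47e-05), where 10.5% of 8625 genes were called. Cd22 did not pass there, with 954, 923 and 865 CPM in transitional-like and 975, 943 and 937 CPM in follicular-like cells (log2 fold -0.04, SE 0.07, adjusted p = 0.801). The called count of 909 was 441 without replicate 3 and 576 without the library as a block.

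In B-1-like cells, the innate-like subset, Cd22 was lower, at 615, 667 and 832 CPM against 975, 943 and 937 CPM in follicular-like cells. The gap was widest in replicate 1 and narrowest in replicate 3, and the log2 fold was -0.41 (SE 0.08, edgeR adjusted p = 0.000778), where 16.2% of genes were called. Siglecg was at 664, 645 and 684 CPM in B-1-like cells and did not pass against follicular-like cells (log2 fold 0.13, SE 0.06, adjusted p = 0.162). The called count of 1395 genes was 862 without replicate 1. The Siglecg change was not tested against the Cd22 change.

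**Figure D3:**
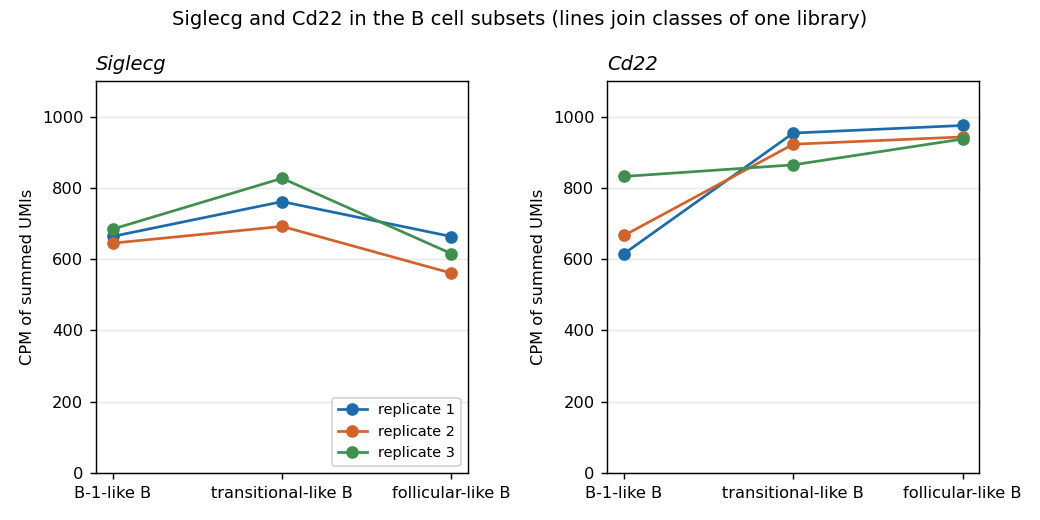
Level in CPM of Siglecg and Cd22 in B-1-like, transitional-like and follicular-like B cells, with 1 line per library. Siglecg is highest in transitional-like cells in each library, and Cd22 is lowest in B-1-like cells.

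Among the tested classes other than B-like cells, Cd22 was highest in patrolling monocytes. Ly6c-low-like cells had 41.9, 80.3 and 51.9 CPM, from 155 UMIs in 73 cells, with a UMI in 10.1%, 17.6% and 11.7% of cells. Ly6c-high-like cells had 4.42, 23.3 and 14.2 CPM, from 55 UMIs in 27 cells, although their cells are deeper. The libraries of these monocyte classes did not overlap, and the log2 fold of Ly6c-high-like against Ly6c-low-like cells was -2.21 (SE 0.50, edgeR adjusted p = 0.0016). Against neutrophil-like cells, at 3.27, 4.55 and 4.76 CPM, Cd22 was higher in Ly6c-low-like cells by 2.76 (SE 0.59, adjusted p = 0.000334). In Ly6c-high-like cells its fold against neutrophil-like cells was 0.54 (SE 0.75, adjusted p = 0.534), but 1.18 without replicate 1 (adjusted p = 0.0386) and -0.06 without replicate 2.

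B cell RNA was present in the same classes. The 8 B markers summed to 63.0 to 445 CPM in Ly6c-low-like and 62.3 to 335 CPM in Ly6c-high-like cells, all 8 were detected in each class, and none of them differed between these classes at an adjusted p of 0.05. Their UMIs count against entry to both classes, which needed 75% of lineage marker UMIs from the monocyte lists. The gate therefore limits how far the classes can differ in them. To set Cd22 beside free B cell RNA, its UMIs were counted per 100 UMIs of Fcer2a, Ighd and Cr2, 3 follicular B cell genes. The ratio was 15.6, 15.4 and 15.04 in B-like cells and 17.2, 16.4 and 12.7 in CD4 T-like cells, but 230, 107 and 25.7 in Ly6c-low-like cells. In Ly6c-high-like cells it was 20.6, 21.4 and 9.45. The Ly6c-low-like values rest on 43, 28 and 101 UMIs of the 3 B cell genes. The ratio was also above that of B-like cells in intermediate monocyte-like cells (75.0, 60.0 and 200) and in conventional dendritic-like cells (146, 100 and 33.3). Those values rest on 1 to 5 and on 2 to 13 UMIs of the 3 genes in a library. This ratio was added after seeing the data.

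Ly6c-low-like cells with a Cd22 UMI (47, 13 and 13 cells) were compared with matched cells without one, also after seeing the data. Of 4587 genes, 3 (0.0654%) passed, all higher in the Cd22-positive cells. Cd79a, a chain of the B cell receptor, was at 51.8, 221 and 656 CPM in positive and at 5.75, 24.4 and 20.02 CPM in matched negative cells (log2 fold 3.93, SE 0.39, edgeR adjusted p = 5.95e-10). Its partner Cd79b and the transcription factor Ets1 were the others, with log2 folds of 1.68 and 0.96. At unadjusted p under 0.05 there were 229 genes. The count was 0 without the library as a block, 0 without replicate 3, 19 without replicate 1 and 1 with DESeq2. The part of B cell RNA in the Cd22 signal of these monocytes was not tested further.

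Siglecg in neutrophil-like cells was 18.4, 9.11 and 12.7 CPM (118 UMIs), which is 67.7, 35.3 and 22.9 UMIs per 100 of the same 3 B cell genes, against 11.2, 9.68 and 10.6 in B-like cells. In conventional dendritic-like cells Siglecg was at 107, 74.8 and 57.1 CPM, in 26 of 51 cells. The ratio there was 231, 300 and 44.4, on 2 to 13 UMIs of the 3 B cell genes in a library.

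Siglech was found in few cells, 353 UMIs in 33 cells. All 4 plasmacytoid dendritic-like cells held it, with 36, 50, 71 and 31 UMIs, and their level was 4741 and 5759 CPM in replicates 1 and 3. Replicate 2 had no such cell. Conventional dendritic-like cells were at 271, 137 and 171 CPM with a UMI in 20 of 51 cells. No UMI was found in 2646 neutrophil-like cells, which allows a share of up to 0.113%, nor in the monocyte classes above. B-like cells had 8 UMIs in 6 of 9800 cells.

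The conventional dendritic-like class also carried plasmacytoid genes. The gate of this class did not count plasmacytoid or monocyte UMIs among those of other lineages. Its summed plasmacytoid list was 300 to 456 CPM, with 5 of 7 markers detected and Klk1 and Cox6a2 at 0, beside 1555 to 2141 CPM of its own list. Cells of that class with a Siglech UMI had a Cd33 UMI in 83.3%, 80.0% and 66.7% of cases, against 35.0%, 16.7% and 20% of those without. These groups hold 3 to 12 cells with Siglech in a library and were not tested. Cd33 was at 271, 262 and 114 CPM in the class as a whole, in 25 of 51 cells, and 3 of the 4 plasmacytoid dendritic-like cells had it. Basophil-like cells had no Cd33 UMI in 28 cells.

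**Figure D4:**
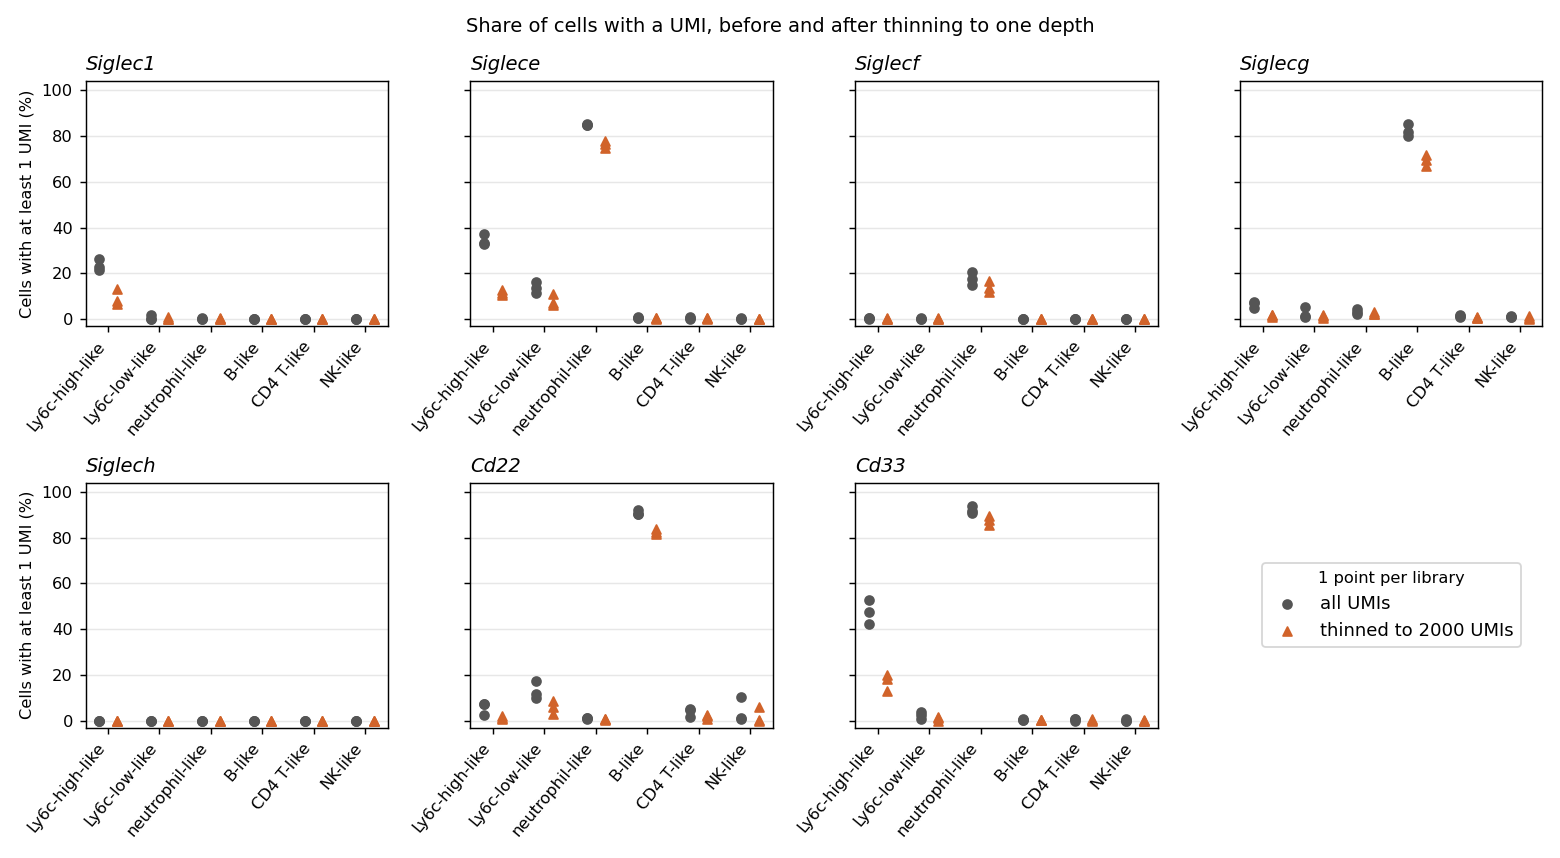
Share of cells with at least 1 UMI of each Siglec gene in 6 classes, with 1 point per library, for all cells (circles) and after thinning to 2000 UMIs without the cells that had fewer (triangles). Neutrophil-like cells lead for Siglece and Cd33 and B-like cells for Siglecg and Cd22 at both depths, and Siglec1 falls to 6.52% to 13.3% of Ly6c-high-like cells after thinning.

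Across the 41 class-by-library sums of 14 classes, Siglece and Cd33 varied together most among the members (Pearson r of log2(CPM + 1) 0.68), followed by Siglec1 and Siglece (0.55) and Siglecg and Cd22 (0.52). The sums share libraries and differ in depth, so these values describe the pattern. Small classes count as much as large ones. The erythroid-like sum of replicate 1 stood at 267 CPM of Siglecg on 1 UMI. In naming the genes most like each member, the members themselves and all genes of the marker lists were left out beforehand. Among 10006 genes at 20 CPM or more in a class mean, the 5 most like Siglec1 were Cfb, the complement factor B (r = 0.96), Lpl, the lipoprotein lipase (0.93), Msantd3 (0.93), Trem2, a lipid receptor of macrophages (0.91), and Plcb1, a phospholipase (0.91). Those most like Siglece were Vnn3 (0.94), Hnmt (0.94), Bst1 (0.94), Sirpb1b (0.93) and Tnfaip2 (0.93). For Cd33 they were Ptafr, the receptor of platelet-activating factor (0.90), Tnni2 (0.90), Rbm47 (0.86), Eepd1 (0.85) and Mpeg1, a pore-forming protein of phagocytes (0.85). Siglecf went with Chst13 (0.90), Chac1 (0.89), Csf1 (0.86), Ccr1 (0.84) and Cd63 (0.84). Siglecg went with Spib, a B cell transcription factor (0.83), Tnfrsf13c, the BAFF receptor (0.79), Kynu (0.77), Kmo (0.77) and Fcrla (0.75). Cd22 went with H2-DMb2, a class II chaperone (0.88), Il4i1 (0.86), Cd83 (0.83), Rasgrp3 (0.82) and Gga2 (0.81). Siglech went with Paqr5 (0.96), Ptprf (0.94), Grm8 (0.92), Adam11 (0.92) and Kank2 (0.92).

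The genes that make, remove or modify, and carry sialic acid, and the partners through which Siglecs signal, were counted as lists. The list called removal here holds the sialidase genes Neu1 and Neu3, and Siae, which encodes an esterase that does not take off sialic acid itself. In Ly6c-high-like against Ly6c-low-like cells, where 35.5% of all genes were called, 1 of 10 signalling partners was higher and 5 were lower, with a list median of -0.33 beside 0.03 for all genes. Of 18 genes for synthesis and transfer, 4 were higher and 5 lower (median 0.10). Of 5 carriers of Siglec ligands, 1 was higher and 2 lower (median 0.12), and 0 of 3 removal genes passed (median 0.31). Spn, the sialylated mucin CD43, was at 229, 189 and 238 CPM in Ly6c-high-like and at 2398, 2286 and 2284 CPM in Ly6c-low-like cells (log2 fold -3.43, SE 0.11, edgeR adjusted p = 4.44e-36). Fyn, a Src-family kinase, was lower (log2 fold -3.31), and the sialyltransferases St8sia4 (1.22) and St3gal3 (1.80) were higher.

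Against neutrophil-like cells, where 73.3% of all genes were called for Ly6c-high-like cells, 1 of 10 signalling partners was higher and 7 were lower in Ly6c-high-like cells (median -1.04), and of 18 synthesis genes 9 were higher and 7 lower (median 0.68). Of the carriers, 1 was higher and 4 were lower (median -1.74), and of the removal genes 1 was higher and 1 lower (median 1.47). St3gal6, a sialyltransferase, stood at 2.04, 4.66 and 1.18 CPM in Ly6c-high-like and at 248, 202 and 237 CPM in neutrophil-like cells (log2 fold -7.45, SE 0.19, edgeR adjusted p = 8.15e-41). Cd24a, a sialylated ligand of Siglecs, was lower (log2 fold -5.95). Siae, a sialic acid esterase found in 1 of the 3 neutrophil libraries, was the 1 higher gene of the removal list (log2 fold 5.84). The sialyltransferase St6galnac6 was higher too (3.43). In Ly6c-low-like cells, with 70.4% of all genes called, the counts were 2 higher and 7 lower partners (median -0.72), 10 and 7 synthesis genes (median 0.61), 1 and 4 carriers (median -2.38) and 1 and 1 removal genes (median 0.52). Fyn (log2 fold 6.61) and Siae (5.99), again the 1 higher gene of the removal list, were higher, and Cd24a (-6.07) and St3gal6 (-6.28) were lower. The shift of all genes with scaling given above applies to these values.

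In B-like against T-like cells, where 63.2% of all genes were called, 5 of 10 signalling partners were higher and 4 lower (median 0.69), 10 of 18 synthesis genes were higher and 5 lower (median 0.30), 1 carrier was higher and 3 lower (median -0.42) and 1 removal gene was lower (median -0.05). Syk, the kinase downstream of the B cell receptor, was at 2002, 1860 and 2144 CPM in B-like and at 7.56, 12.2 and 25.1 CPM in T-like cells (log2 fold 7.48, SE 0.18, edgeR adjusted p = 7.06e-20). Lyn, the kinase that phosphorylates Cd22, was higher by 6.36, while St8sia1, which makes the ganglioside GD3, was lower (log2 fold -7.11), as was Spn (-4.10).

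In transitional-like against follicular-like B cells, where 10.5% of all genes were called, 2 of 10 signalling partners were higher and 1 was lower (median 0.07), and of 17 synthesis genes tested 0 passed (median 0.07). Among the carriers 1 was higher (median 0.15), and 0 of 2 removal genes passed (median -0.16). Cd24a was higher by a log2 change of 0.83 (SE 0.06, edgeR adjusted p = 2.32e-15), and Ptpn6, the SHP-1 phosphatase that inhibitory Siglecs recruit, was at 1217, 1141 and 1304 CPM in transitional-like and 1008, 933 and 992 CPM in follicular-like cells (log2 fold 0.34, SE 0.05, adjusted p = 2.18e-06). Hcst, an activating adaptor, was lower (log2 fold -0.59). In B-1-like against follicular-like cells, with 16.2% of all genes called, 3 of 10 partners were higher and 1 lower (median 0.09), 4 synthesis genes were higher and 2 lower (median 0.25), 3 carriers were higher (median 0.66) and 0 of 2 removal genes passed (median -0.12). St3gal4 was higher by 1.55, and St6gal1, which makes the alpha2,6-linked sialic acid that Cd22 binds, was at 309, 321 and 365 CPM in B-1-like and 415, 409 and 398 CPM in follicular-like cells (log2 fold -0.27, SE 0.07, edgeR adjusted p = 0.00471). St8sia4 was lower (log2 fold -0.40). Spn (log2 fold 3.12) is itself among the markers that chose B-1-like cells, so its difference is part of the gate.

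Within Ly6c-high-like monocytes, the 132 cells with a Siglec1 UMI (70, 33 and 29) were compared with matched cells without one (210, 99 and 81), to ask whether the relatives go with Siglec1 in the same cells. In replicate 3 the 81 cells are all the others of the class, so none could be chosen by depth. Median totals were 8835.5, 9795 and 8725 UMIs in positive and 8842.5, 9419 and 7749 UMIs in negative cells. Cd33 was at 129, 120 and 170 CPM in Siglec1-positive and 128, 103 and 136 CPM in matched negative cells, and Siglece at 73.1, 70.9 and 97.0 against 70.3, 78.1 and 77.0 CPM. Neither passed, with log2 folds of 0.19 (SE 0.15, edgeR adjusted p = 0.894) for Cd33 and 0.10 (SE 0.19, adjusted p = 0.974) for Siglece. A Cd33 UMI was found in 65 and a Siglece UMI in 52 of the 132 cells. For Cd33 that was 41.4%, 57.6% and 58.6% of positive cells by library, against 48.6%, 41.4% and 50.6% of matched negative cells. For Siglece it was 35.7%, 39.4% and 48.3%, against 34.3%, 34.3% and 33.3%.

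Of 7428 genes, 152 (2.05%) passed in that comparison, 139 higher and 13 lower, and 585 had an unadjusted p under 0.05. The count was 80 without the library as a block, 62 without replicate 1, 89 without replicate 3 and 42 with DESeq2. Of the lists, 0 of 10 signalling partners, 0 of 13 synthesis genes and 0 of 2 removal genes passed, with medians of 0.03, 0.09 and -0.11, and the 1 carrier that did was Cd52, a short sialylated glycoprotein (log2 fold 0.24, SE 0.07, adjusted p = 0.0478). The genes with the smallest p, named after their values were seen, included Slfn5, at 898, 863 and 1003 CPM in positive and 431, 524 and 440 CPM in negative cells (log2 fold 1.02, SE 0.09, adjusted p = 1.18e-10). Irf7, a transcription factor of the interferon response, was at 688, 635 and 1019 CPM in positive and 277, 346 and 333 CPM in negative cells (log2 fold 1.30, SE 0.11, adjusted p = 4.48e-09). Rtp4, Lgals3bp, Ly6e, Ifi209, Plac8 and Slfn1 were higher as well, by log2 folds of 0.55 to 1.74.

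**Figure D5:**
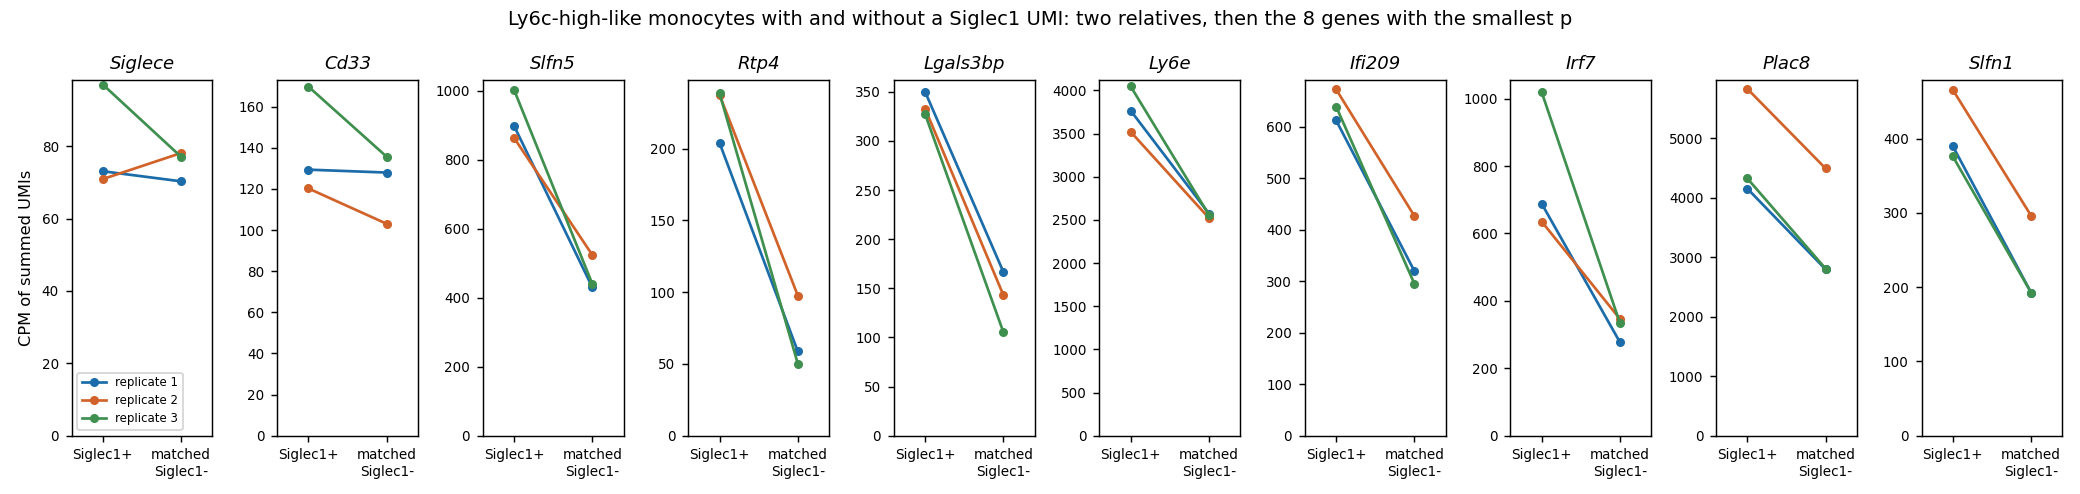
Level in CPM of Siglece, Cd33 and the 8 genes with the smallest p in Ly6c-high-like monocytes with a Siglec1 UMI and in matched cells without one, with 1 line per library and a separate vertical axis from 0 for each gene. In replicate 3 the cells without one are all the others of the class. The 8 genes are higher in the positive cells in each library, as is Cd33, which did not pass the test, and Siglece is lower in the positive cells of replicate 2 and higher in those of replicates 1 and 3.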

How the data were processed

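Raw counts of UMIs for each gene in each barcode, not normalized by the authors, were deposited, made with Cell Ranger 7.1.0 per the file headers from the 10x fixed-RNA kit (16-plex) named in the labels. Deposited lists of barcodes and genes carry identifiers alone (unit: other). Genome build and probe set: not given in the sources used here. Members, gene lists and tests were chosen with earlier results of these data known. Barcodes under 200 genes and Scrublet doublets (667, 116 and 138, scanpy 1.11.5) were removed. Most classes required at least 3 UMIs from 2 markers of a list and 75% of all lineage marker UMIs. For the dendritic classes, monocyte and other dendritic UMIs were left out of the 75%. A conventional dendritic-like cell needed at least 25% as many UMIs of its list as of the monocyte lists. A plasmacytoid dendritic-like cell needed more of its own than of either. Platelet-like and erythroid-like cells had fewer than 3 lineage marker UMIs. UMIs were summed per library and class and tested with edgeR 4.0.16 (quasi-likelihood, TMM, filterByExpr, library as block) in R 4.3.3, with Benjamini-Hochberg adjustment over all genes tested. That block pairs the classes within each library by design. A joint fit covered every class with at least 10 cells in each library, another the B subsets, and each matched comparison had its own. Libraries differed from each other beyond sampling noise (chi-square per degree of freedom 327, 189 and 82.7), and the block takes up such differences. With it, p-values rest on how far class differences vary between these libraries, over all classes of a fit and with information shared between genes. They do not rest on the 2 compared classes alone. The labels do not say that the libraries come from separate animals, so that variation is not shown to be one between animals. A paired exact permutation test over 3 libraries cannot go below p = 0.25, so levels and shares are descriptions. Dendritic, basophil and eosinophil comparisons were planned and not tested, for want of cells. The genes named are all members and the 5 most like each that are neither members nor in a marker list. Named too are, per comparison, the 2 highest and 2 lowest called list genes. Any other is said to be chosen after its values were seen. Alternatives were other scalings, no count filter, no block, DESeq2 1.42.0, a stricter gate, doublets kept and each library left out.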

Additional observations from a re-analysis of the deposited data

Results flagged for a closer look

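Siglec UMIs also appeared in the 523 cells that no gate resolved, which enter no comparison. They held 194 Siglece, 81 Siglecf, 183 Siglecg, 57 Siglech, 240 Cd22 and 285 Cd33 UMIs, all above the 3 UMIs that a count of 0 allows. The Siglech UMIs lay in 2 cells of replicate 1. 49 were in a cell with 44 UMIs of the plasmacytoid dendritic list and 26 of the T list, and 8 in a cell with 97 UMIs of the B list. The Siglecf UMIs lay in 48 cells, at 54.0, 22.2 and 36.5 CPM of the unresolved sums in replicates 1, 2 and 3.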

How the results depend on the processing

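Of the log2 folds of members recomputed under the alternatives, 290 kept direction and side of the threshold, 8 lost and 1 gained the call, and 14 changed sign, all 14 in differences that had not passed. Siglecg in Ly6c-high-like against neutrophil-like cells was -1.09 with DESeq2 size factors, -0.63 on plain totals and -0.90 with DESeq2, and -1.91 to -0.71 with a library left out. With a library left out, Siglecg against neutrophil-like cells was -3.30 to -0.56 in Ly6c-low-like cells, and Cd22 was -0.061 to 1.18 in Ly6c-high-like cells. Siglec1 and Siglece in Ly6c-high-like against Ly6c-low-like cells were 4.76 and 0.45 with DESeq2, and Siglece was 0.19 to 0.94 with a library left out. Sign changes were in B-like against T-like cells Siglece (0.070 with DESeq2, 0.10 with doublets kept, -0.17 to 0.55 with a library left out), Siglecf (0.10 with doublets kept, -0.63 to 2.27) and Cd33 (-0.13 to 0.58). The others were Siglecg between the monocyte classes (-0.15 to 1.70), Siglec1 in Ly6c-low-like against neutrophil-like cells (-5.27 to 1.09), Siglece by Siglec1 (-0.019 with doublets kept), Cd33 by Siglecf (-0.035 without the count filter, -0.023 to 0.036) and Siglece by Cd22 (-0.37 to 0.025). The cause was not tested.

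Without the replicate block the number of genes called was 576 for transitional-like against follicular-like B cells, 80 for Siglec1-positive, 0 for Siglecf-positive and 0 for Cd22-positive cells, against 909, 152, 5 and 3 with it, and leaving the block out changed no call of a member. With DESeq2 these counts were 524, 42, 2 and 1, and 900 for B-1-like cells against 1395. Without the count filter they were 12 for Siglecf-positive and 22 for Cd22-positive cells, and 22 for Cd22-positive cells with doublets kept. With a library left out they ranged from 441 to 699 for transitional-like, 862 to 1096 for B-1-like, 62 to 165 for Siglec1-positive, 2 to 9 for Siglecf-positive and 0 to 19 for Cd22-positive cells, and from 2110 to 3413 between the monocyte classes (3689 with all libraries). The counts of the other 3 comparisons stayed within 1.5 times.

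Thinned to 1000 in place of 2000 UMIs per cell, the shares of cells with a UMI were 5.41% for Siglec1 in Ly6c-high-like cells, 55.4%, 8.01% and 71.2% for Siglece, Siglecf and Cd33 in neutrophil-like cells, and 45.3% and 59.3% for Siglecg and Cd22 in B-like cells. The planned comparisons of eosinophil-like, basophil-like and both dendritic classes gave no value, since each had under 10 cells in a library. The 6 thinned shares depend on depth, and a cell without a UMI is not shown to lack the transcript.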

Other observations

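Among the other Siglecs on the probe list, Mag, the myelin-associated glycoprotein best known from the sheath-forming cells of the nervous system, was found in NK-like cells. Its level there was 35.6, 24.3 and 22.5 CPM in replicates 1, 2 and 3, with a UMI in 10.3%, 8.39% and 5.68% of cells. NK-like cells held 101 of its 118 UMIs, in 85 of 889 cells, while CD4 T-like and CD8 T-like cells had none. Siglec15 had 19 UMIs, 18 of them in B-like cells.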
